A study of Mus musculus with 8 samples.

Results

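The 43 genes described here act in DNA replication, in mitosis and at the start of S phase. They were chosen by symbol, and all 43 were found among the 28918 genes of the deposited expression table. Of these, 15 belong to DNA replication, 22 to mitosis (with cyclin A2 and the growth-fraction marker Mki67 counted here) and 6 to the control of the step from G1 to S phase. The samples were tumors that grew under the skin of C57BL/6 mice from B16-mhgp100, a derivative of the mouse melanoma line B16. The Colq group over-expressed Colq, which encodes the collagen-like tail of acetylcholinesterase, and the Vector group carried the vector alone. Every mouse in both groups received an antibody against the checkpoint receptor PD-1 (4 doses of 200 µg, 2 per week, from day 10 after inoculation), with tumors taken 1 day after the last dose, so no group without the antibody was compared. The 3 Colq tumors gave 1 library each. Vector tumors 1 and 2 were sequenced as 2 portions each and Vector tumor 3 as 1, giving 5 Vector libraries from 3 tumors. Age, sex, the promoter driving Colq and the clonal state of the lines are not given in the labels. Whole tumors were homogenized, so each value mixes melanoma cells with host cells.

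Cells prepare for S phase by loading the Mcm2 to Mcm7 helicase onto origins with Cdc6 and Cdt1. Cyclin-dependent kinases also release E2F factors from the retinoblastoma proteins. E2F factors then drive many replication genes, whereas genes of G2 and mitosis are mostly driven later through the CHR promoter element by the MuvB complex with B-Myb and Foxm1, often with CCAAT boxes. Mitosis itself runs on cyclin B with Cdk1, on Polo-like and Aurora kinases, on kinetochore and spindle proteins, and on the anaphase-promoting complex, which ends it. In B16 tumors the melanoma cells divide rapidly, and dividing immune and stromal cells add to the same transcripts.

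As a check of the labels, Colq itself stood between 3.86 and 5.03 TPM (a level scaled by transcript length and library total) in the Colq libraries and between 0 and 0.24 TPM in the Vector libraries. Skeletal muscle markers were also higher in Colq libraries, with sums of 1027 to 1042 TPM against 52.6 to 204 TPM. How much of the Colq level came from the construct and how much from host tissue was not tested. TPM keeps no sequencing depth, so the precision below rests on the spread between tumors. The 3 Colq libraries lay close together: the SD of their pairwise log2 differences over all 13726 tested genes was 0.36 to 0.39, below the 0.51 between portions of 1 Vector tumor and the 0.44 to 0.56 between different Vector tumors. Over the 43 members the same SDs were 0.10 to 0.12, 0.15 to 0.19 and 0.16 to 0.35, against 0.47 to 0.60 between Colq and Vector libraries. The labels name the Colq libraries as separate tumors, and no value here tells whether they were. Results are therefore also given with the 3 Colq libraries averaged into 1 sample, a setting added once the data had been seen.

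The promoters of the 2 main classes are shown first, because they carry different known elements. RefSeq promoters (GRCm38.p6, 250 bases before to 50 after the start; the deposited values were made on mm39) matched 33 of the 43 members, 12 of replication, 17 of mitosis and 4 of G1/S control. Both strands were searched for an E2F element (written as TTCCCGC, as TTGGCGC, as TTCGCGC or as TTGCCGC), the CHR element (written as TTTGAA or as TTCGAA) and CCAAT; none of the 3 is contained in another. The stretches below lie wholly upstream of the start, run 5′ to 3′ on the strand of the gene, and carry 1 E2F match each in capitals for 5 replication members; further matches in Mcm5 and Mcm6, some of which overlap the capitals, were left unmarked. A match on the other strand reads here as its reverse complement.
Mcm5 (chr8:75109330-75109396, plus strand): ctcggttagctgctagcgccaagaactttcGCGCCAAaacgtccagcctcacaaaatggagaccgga
Mcm6 (chr1:128359712-128359778, minus strand): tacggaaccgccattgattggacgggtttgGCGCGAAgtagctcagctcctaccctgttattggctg
Mcm7 (chr5:138171343-138171409, minus strand): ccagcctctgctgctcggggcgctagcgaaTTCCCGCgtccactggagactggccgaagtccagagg
Rrm1 (chr7:102441598-102441664, plus strand): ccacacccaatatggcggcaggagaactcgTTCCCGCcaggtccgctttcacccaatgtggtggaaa
Prim1 (chr10:128015170-128015214, plus strand): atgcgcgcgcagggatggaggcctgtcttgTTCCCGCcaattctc
The next 6 stretches, from mitosis members, carry 1 CHR match each in capitals in the same way, with a further match in Mki67 left unmarked.
Top2a (chr11:99024190-99024242, minus strand): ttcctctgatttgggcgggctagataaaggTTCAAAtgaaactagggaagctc
Cdc20 (chr4:118437344-118437391, minus strand): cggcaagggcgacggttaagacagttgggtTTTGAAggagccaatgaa
Cdk1 (chr10:69352913-69352957, minus strand): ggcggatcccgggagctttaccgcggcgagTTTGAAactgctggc
Ube2c (chr2:164769870-164769928, plus strand): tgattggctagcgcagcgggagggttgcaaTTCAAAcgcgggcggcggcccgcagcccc
Kif11 (chr19:37376333-37376381, plus strand): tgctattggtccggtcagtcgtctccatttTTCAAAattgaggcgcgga
Mki67 (chr7:135716442-135716507, minus strand): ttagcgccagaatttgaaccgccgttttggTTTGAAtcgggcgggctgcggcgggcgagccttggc
The CHR match lay close to the start in Cdk1 (10 bases away), Cdc20 (13 bases), Kif11 (14 bases), Top2a (18 bases) and Ube2c (24 bases).

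An E2F match was held by 9 of the 12 replication promoters (75%), by 3 of the 17 mitosis promoters (17.6%) and by 10.9% of the promoters of all 27025 genes with an entry. The CHR letters stood in 14 of the 17 mitosis promoters (82.4%), in 2 of the 12 replication promoters (16.7%) and in 21.7% of all promoters. Within 50 bases of the start, a CHR match remained in 13 of 17 mitosis promoters (76.5%), in 0 of 12 replication promoters and in 6.45% of all. CCAAT was found in 16 of 17 mitosis promoters, in 9 of 12 replication promoters and in 41.1% of all. Such a match describes letters in a window and is not evidence of binding. Among the 12 replication members with a promoter, the median log2 fold change between tumors was -1.05 for the 9 with an E2F match and -0.14 for the 3 without, Mcm2 (-1.37) being the lowest of those 3, Pcna and Tyms the others. The 14 mitosis members with a CHR match had a median of -0.83 (-1.52 to 0.30), and the 3 without had -0.64. With 3 members in each of the smaller sets, these medians are descriptions only.

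Nearly all of the 43 genes had lower TPM in Colq tumors. As deposited, 38 of 43 (88.4%) were called lower at an adjusted p below 0.05 by limma with Benjamini-Hochberg adjustment over all tested genes, and 1, Cenpa, was called higher. This has to be read against the whole table, in which 59.6% of the tested genes were called lower and 11.3% higher. The median log2 fold change (Colq minus Vector, on the log2(TPM + 1) scale) was -0.78 over the members and -0.50 over all tested genes, and 30 of the 43 members lay below the latter. All 43 passed the low-value filter, with mean levels between 14.3 TPM (Ccne2) and 525 TPM (Cdk2). In the 38 lower members every Colq library lay below every Vector library, a separation shown by 57.4% of tested genes. Cenpa was above in every Colq library (9.92% of tested genes), and Gins2, Tyms, Ccne1 and Ccne2 overlapped. An exact two-sided permutation test on 3 against 3 tumors cannot give a p below 0.1, which was the value for each of the 38. In bulk tumors, fewer dividing cells and less of these transcripts per cell cannot be told apart.

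**Figure D1:**
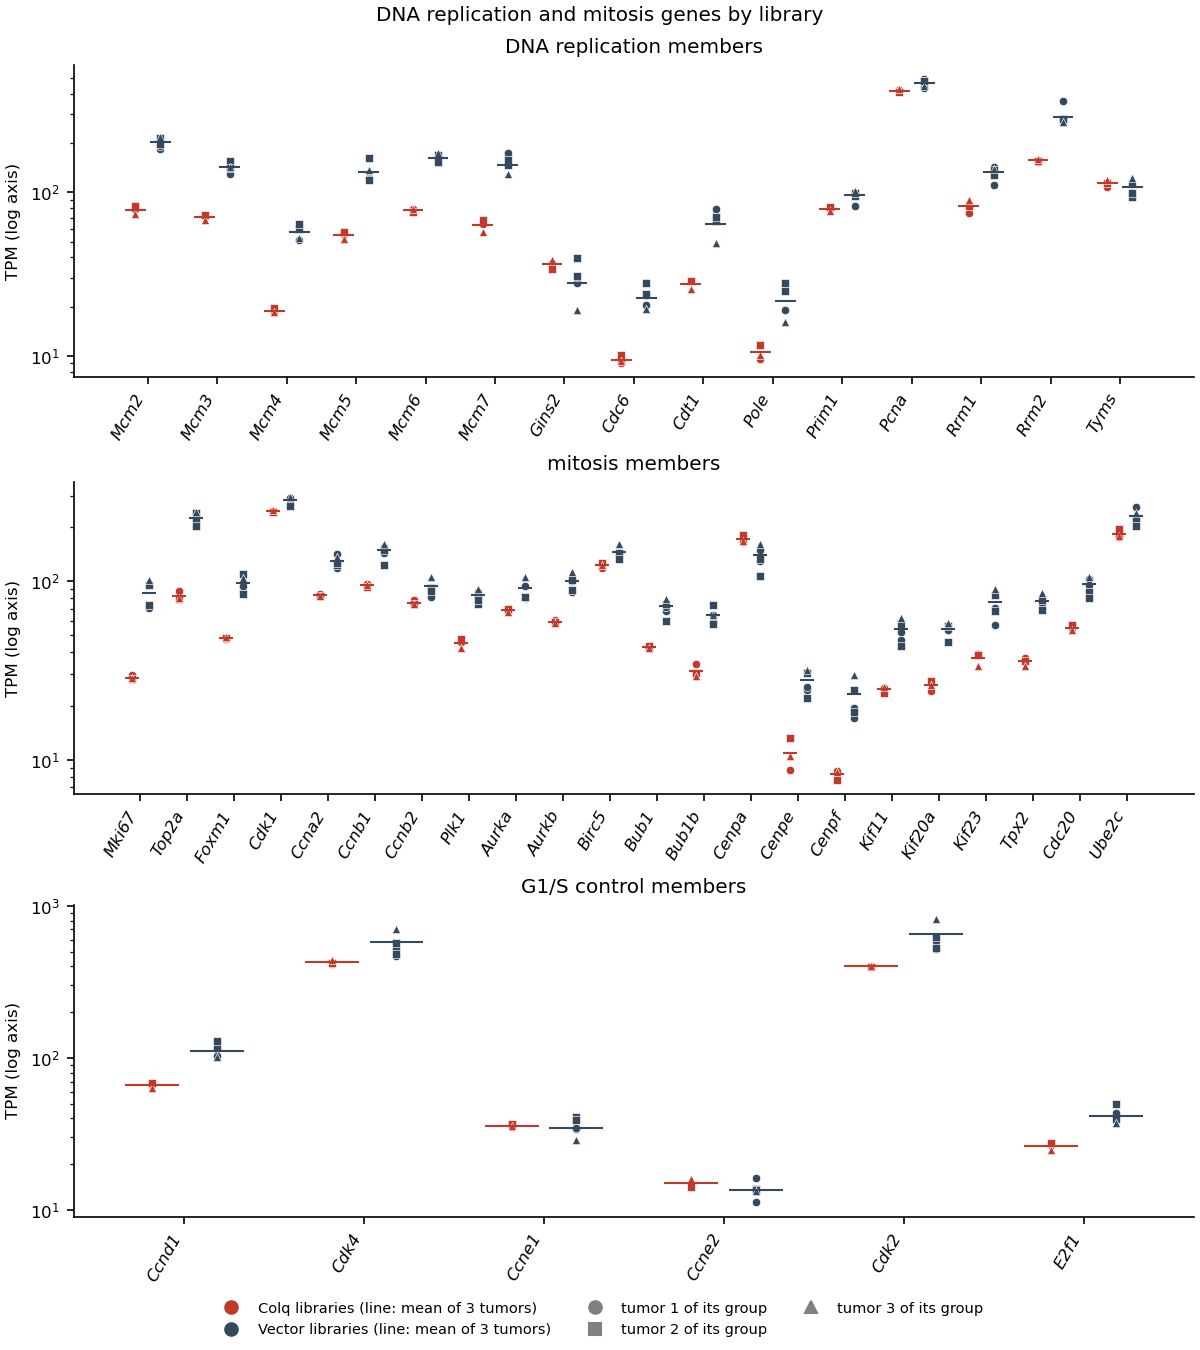
TPM of each member in every library (log axis), with DNA replication, mitosis and G1/S control members in separate panels, Colq libraries in red and Vector libraries in blue. Horizontal lines mark the mean of the 3 tumors of a group and symbols the tumor number; in 38 members all red points lie under all blue ones.

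Because most genes were lower in Colq tumors on the deposited scale, the direction was read on other scales too. Median-of-ratios size factors moved the median of all tested genes to -0.01 and raised each member's log2 fold change by 0.51 to 0.55. After them, 20 members were called lower (26.8% of tested genes) and 11 higher (27.3%). With the trend of each tumor on transcript length removed (median of all genes -0.07), 23 were called lower (27.0%) and 6 higher (18.8%). Quantile normalization gave 29 lower (30.3%) and 5 higher (23.2%). Rescaling without mitochondrial, ribosomal protein, immunoglobulin and haemoglobin genes gave 30 lower (49.7%) and 4 higher (14.8%). With the Colq libraries as 1 sample, 28 were called lower (41.6%) and 0 higher (5.74%; 0 also at an unadjusted p below 0.05). On all 3 scales, deposited, size factors and length trend removed, 18 members were lower, 9 of replication (Mcm2 to Mcm7, Cdc6, Cdt1 and Rrm2) and 9 of mitosis (Mki67, Top2a, Foxm1, Plk1, Bub1b, Kif11, Kif20a, Kif23 and Tpx2). Of the tested genes with a length, 17.8% met the same criterion. Cenpa alone among the members was called higher on all 3 scales, as were 9.21% of tested genes.

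**Figure D2:**
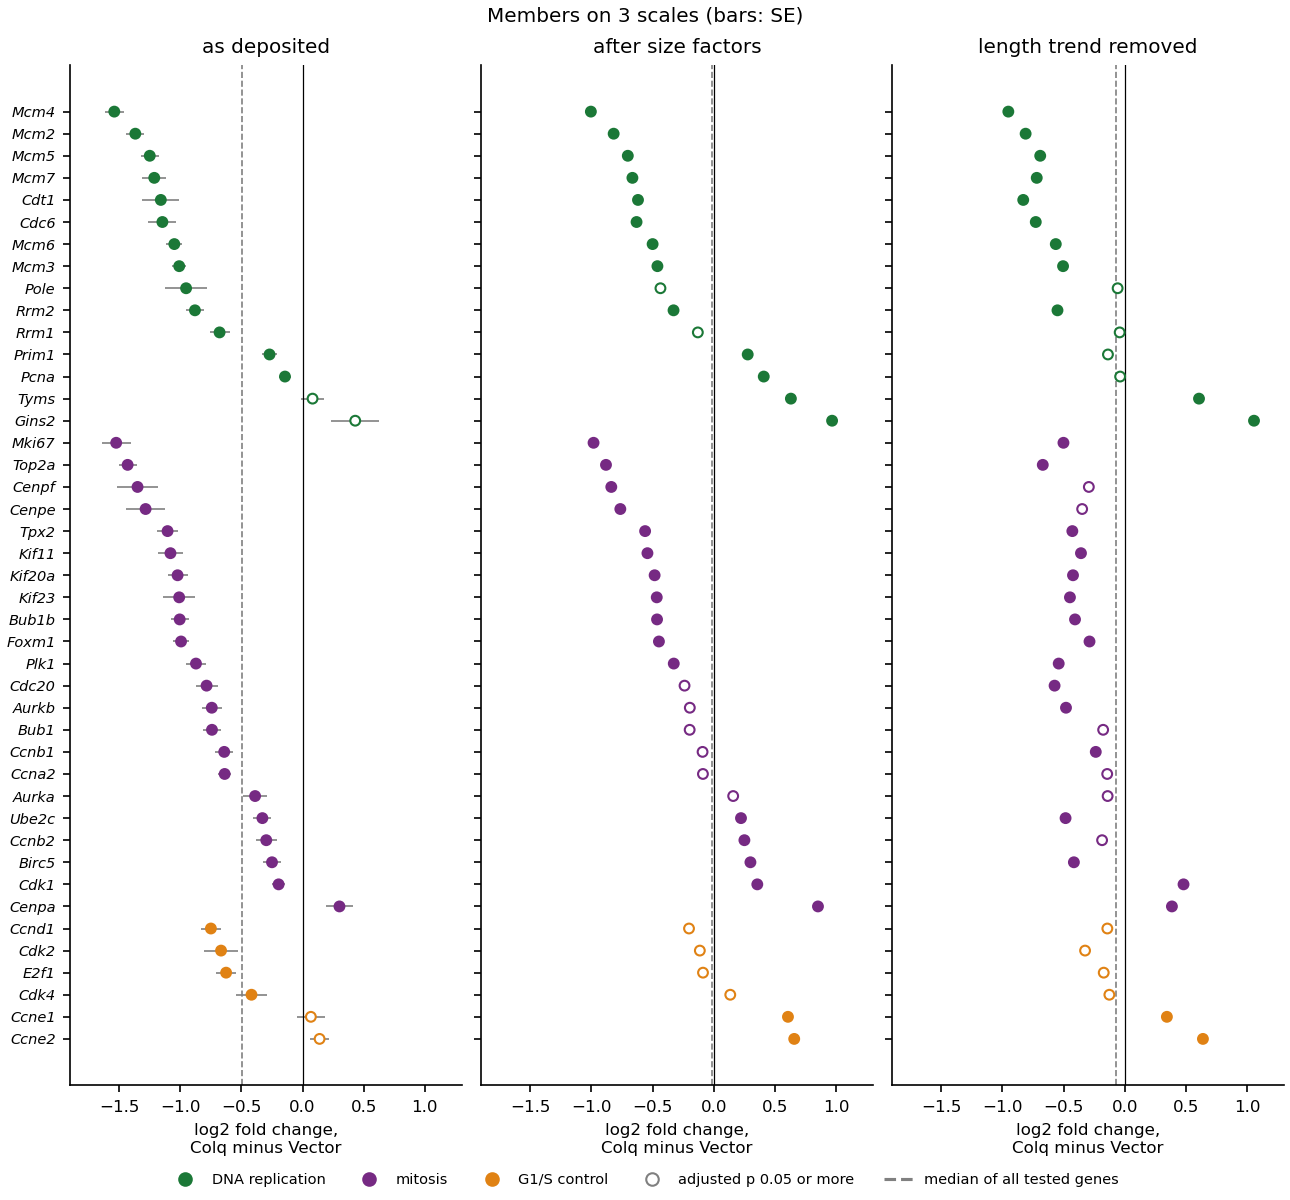
Log2 fold change (Colq minus Vector) of each member as deposited, after size factors and without the length trend. Filled points have an adjusted p below 0.05, open points do not, bars in the first panel are SE, and the dashed line is the median of all tested genes (-0.50, -0.01 and -0.07); the Mcm genes stay left of it in each panel.

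The Mcm2 to Mcm7 helicase, which unwinds DNA at the replication fork, was lower as a whole. Mcm4, the lowest in TPM of its 6 subunits, stood at 18.5, 19.7 and 18.6 TPM in Colq libraries 1 to 3 and at 51.0, 63.5, 59.5, 64.3 and 52.3 TPM in the Vector libraries (tumor 1 portions 1 and 2, tumor 2 portions 1 and 2, tumor 3; the same order is kept throughout). Each Colq library thus held well under the lowest Vector value, and the log2 fold change was -1.54 (SE 0.08; limma, adjusted p = 1.4e-05). A share of 1.25% of tested genes had a lower fold change. Mcm2, the subunit that also carries histones, was measured at 78.5, 82.2 and 73.4 TPM against 184, 191, 196, 215 and 217 TPM. It too separated the groups fully (log2 fold change -1.37, SE 0.07; limma, adjusted p = 1.5e-05). Mcm5 followed with 55.3, 57.6 and 52.1 TPM in Colq and 122, 120.0, 119, 162 and 137 TPM in Vector libraries, where the second portion of tumor 2 was the highest. Mcm7 stood at 63.7, 67.7 and 57.6 TPM against 149, 175, 146, 157 and 129.8 TPM, again with no overlap. For Mcm6 the values were 79.0, 76.1 and 78.5 TPM and 152, 152, 169, 152 and 174 TPM. Mcm3 had the smallest difference of the 6, with 71.4, 72.3 and 67.6 TPM against 129.6, 145, 155, 140.4 and 144 TPM and a log2 fold change of -1.01 (SE 0.06). Adjusted p values of the 6 ran from 1.4e-05 to 4.1e-05 with limma. All 6 separated the groups fully, as 57.4% of tested genes did in the same direction, and 59.6% of tested genes were called lower.

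In summed TPM the 6 subunits held 348 to 376 in Colq libraries and 788 to 891 in Vector libraries. Single subunits stood at 0.331 (Mcm4) to 0.493 (Mcm3) of their Vector mean. The 6 did not move by exactly the same factor: Mcm4 made up 5.04% to 5.34% of the summed Mcm TPM in Colq libraries and 6.13% to 7.50% in Vector libraries, and Mcm3 19.3% to 19.5% against 15.8% to 18.3%, with no overlap in either case. All 6 were called lower after size factors (-0.46 for Mcm3 to -1.0 for Mcm4) and without the length trend (-0.50 to -0.95). On these 2 scales 26.8% and 27.0% of all tested genes were called lower. With the Colq libraries as 1 sample the log2 fold changes were -1.54 to -1.01. Mcm7 shares 321 exonic bases with Ap4m1 (log2 fold change -0.76) and 64 with Cops6, both on the opposite strand, and the libraries do not keep strand.

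The licensing factors that load this helicase were lower as well. Cdc6, the loading ATPase, was measured at 9.11, 10.1 and 9.31 TPM in Colq and 20.4, 23.7, 23.8, 28.1 and 19.4 TPM in Vector libraries (log2 fold change -1.15, SE 0.12). Cdt1, its partner and the target of geminin, stood at 28.6, 28.7 and 25.8 TPM against 70.5, 78.9, 66.8, 70.3 and 48.9 TPM. Vector tumor 3 lay apart from the other Vector libraries in Cdt1 but still above all Colq libraries (log2 fold change -1.16, SE 0.15; limma, adjusted p = 3.4e-04). Pole, the catalytic subunit of the leading-strand polymerase, had 9.64, 11.7 and 10.2 TPM against 19.1, 25.8, 24.9, 27.8 and 16.2 TPM, with Vector tumor 3 again the lowest of its group. Its log2 fold change of -0.95 (SE 0.17) did not pass the test after size factors (-0.44) or without the length trend (-0.06).

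Both listed subunits of ribonucleotide reductase, which makes the deoxyribonucleotides, were lower as deposited. Rrm2, the subunit whose level follows S phase, was at 154, 155 and 160.3 TPM in Colq and 282, 363, 277, 279.9 and 269.6 TPM in Vector libraries (log2 fold change -0.88, SE 0.07). The second portion of Vector tumor 1 stood well above the other Vector libraries. Rrm1, the large subunit, showed 74.6, 82.1 and 90.1 TPM against 110.5, 142, 136, 128 and 139 TPM (log2 fold change -0.68, SE 0.08), and was not called after size factors (-0.13) or without the length trend (-0.04).

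The other 4 replication genes lay closest to their Vector levels on the deposited scale. Pcna, the sliding clamp of the polymerases and the most abundant replication member, was measured at 419, 408 and 428 TPM against 433, 489, 478, 477 and 449 TPM. The groups lay just apart, with a log2 fold change of -0.14 (SE 0.05; limma, adjusted p = 0.031), and the call was lost without any 1 Colq library or without Vector tumor 2 (limma, adjusted p = 0.058 to 0.107). Prim1, the catalytic subunit of primase, had 80.2, 81.2 and 76.8 TPM against 82.4, 98.2, 95.2, 99.1 and 101 TPM (log2 fold change -0.27). After size factors both were called higher, Prim1 by 0.28 and Pcna by 0.41. Tyms, which makes thymidylate, stood at 108, 115 and 118 TPM in Colq and 98.4, 112, 93.6, 99.1 and 122 TPM in Vector libraries. Its groups overlapped (log2 fold change 0.08, SE 0.09; limma, adjusted p = 0.446), and it was called higher after size factors (0.63) and without the length trend (0.61). Gins2, a subunit of the active helicase, was at 37.0, 34.1 and 38.6 TPM against 27.8, 30.2, 39.4, 30.8 and 19.1 TPM, with Vector tumor 3 the lowest library. Its log2 fold change of 0.43 (SE 0.20; limma, adjusted p = 0.084) was not called as deposited, was called without Vector tumor 2 (0.61, adjusted p = 0.022), was 0.20 and not called without Vector tumor 3 (adjusted p = 0.119), and was 0.97 after size factors and 1.06 without the length trend, both called higher. Gins2 shares 2758 exonic bases (67.3% of its own) with Gse1 on the opposite strand, and Gse1 was lower in Colq tumors (log2 fold change -1.13). In all, 13 of the 15 replication members were called lower as deposited (59.6% of all tested genes), with a median of -1.01 (-0.50 over all tested genes). The 9 outside the Mcm genes had a median of -0.68 and 7 called lower.

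Among the 22 mitosis genes, 21 were called lower (59.6% of all tested genes) and 1 higher (11.3%) on the deposited scale. Their median log2 fold change was -0.83, beside -0.50 over all tested genes. The largest difference was in Mki67, the chromosome-surface protein used to mark dividing cells, at 29.7, 28.1 and 28.5 TPM in Colq and 70.5, 73.3, 73.7, 94.5 and 101 TPM in Vector libraries. All 3 Colq libraries lay far under the lowest Vector value (log2 fold change -1.52, SE 0.12; limma, adjusted p = 3.6e-05). Top2a, the topoisomerase that untangles sister chromatids, was at 88.4, 78.8 and 80.3 TPM against 203, 219, 203, 239 and 242 TPM (log2 fold change -1.43, SE 0.07; limma, adjusted p = 1.4e-05). Foxm1, the transcription factor of the G2 and M program, was at 47.3, 48.0 and 48.8 TPM against 87.5, 93.2, 85.0, 109 and 104 TPM (log2 fold change -0.99, SE 0.07). None of these 3 overlapped between groups, as 57.4% of tested genes did not in the same direction. Each of the 3 stayed lower on the other scales: Mki67 at -0.98 and -0.50, Top2a at -0.88 and -0.67, and Foxm1 at -0.45 and -0.29, after size factors and without the length trend respectively.

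Cdk1 and the cyclins, which start mitosis, lay closer to their Vector levels. Cdk1 was measured at 246, 244 and 250.2 TPM in Colq and 281, 293, 270.4, 262 and 296 TPM in Vector libraries, a log2 fold change of -0.20 (SE 0.06; limma, adjusted p = 0.016). Its groups lay apart by a narrow margin, the call was lost without Colq tumor 1 or 2 (limma, adjusted p = 0.051 and 0.053), and the sign turned to 0.36 after size factors and 0.48 without the length trend, both called higher. Ccnb1 (cyclin B1) was at 95.7, 92.7 and 95.5 TPM against 142, 156, 123, 148 and 161 TPM, and Ccna2 (cyclin A2) at 84.4, 82.0 and 82.8 TPM against 118, 142, 122, 127 and 136 TPM. Both were lower in every Colq library, with log2 fold changes of -0.64 (SE 0.07) and -0.64 (SE 0.06), but neither was called after size factors (-0.09 and -0.09). Ccnb2 (cyclin B2) stood at 78.5, 74.6 and 74.0 TPM against 81.3, 91.0, 91.3, 87.4 and 105 TPM. Its log2 fold change of -0.30 was not called without Colq tumor 3 (adjusted p = 0.052, limma) and turned to 0.25 after size factors. Cdk1 and its 3 cyclins were thus between 0.636 and 0.872 of the Vector mean on the deposited scale. Ccna2 shares 510 exonic bases (12.5% of its own) with Exosc9 on the opposite strand, which was lower too (-0.53).

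Of the mitotic kinases, Plk1 (Polo-like kinase) stood at 45.7, 47.1 and 42.3 TPM in Colq and 81.7, 86.2, 74.6, 78.1 and 89.7 TPM in Vector libraries and was lower on all 3 scales (log2 fold change -0.87, SE 0.08, as deposited). Aurkb, the kinase of the chromosomal passenger complex, was at 60.8, 58.5 and 58.4 TPM against 86.2, 100.4, 89.2, 101 and 113 TPM, and its partner Birc5 (survivin) at 118, 125 and 123 TPM against 137, 143, 143, 132 and 160.0 TPM. These 2 members of 1 complex had log2 fold changes of -0.74 and -0.25 on the deposited scale. After size factors Aurkb was not called (-0.20) and Birc5 was called higher (0.30), whereas without the length trend they stood close together and were both lower, at -0.48 and -0.42. Birc5 was not called without Colq tumor 1 (limma, adjusted p = 0.057). Aurka, the spindle-pole kinase, had 69.2, 69.7 and 67.3 TPM against 80.6, 93.6, 80.9, 81.1 and 105 TPM, a log2 fold change of -0.39 that was called on neither other scale. Its activator Tpx2 was at 37.2, 35.7 and 33.3 TPM against 70.8, 75.1, 68.9, 78.4 and 85.9 TPM and was lower on all 3 scales (-1.10, -0.56 and -0.43).

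The checkpoint and kinetochore genes were lower with 1 exception. Bub1b, which encodes the checkpoint protein BubR1, was at 34.2, 30.7 and 29.3 TPM in Colq and 58.9, 64.7, 57.6, 73.8 and 64.8 TPM in Vector libraries, and Bub1 at 42.2, 43.1 and 42.1 TPM against 67.7, 71.7, 60.1, 74.0 and 79.2 TPM. Their log2 fold changes were -1.0 (SE 0.07) and -0.74 (SE 0.08), and after size factors only Bub1b was called (-0.46; Bub1 -0.20). Cenpe, the kinetochore motor, was measured at 8.73, 13.3 and 10.5 TPM against 24.6, 25.4, 22.2, 30.4 and 31.9 TPM, and Cenpf, a large kinetochore protein, at 8.66, 7.71 and 8.57 TPM against 19.4, 17.2, 18.6, 24.5 and 29.9 TPM. Both were among the largest differences, -1.28 (SE 0.16) and -1.35 (SE 0.17), Cenpf having the largest coefficient of variation of the mitosis members among Vector tumors, and neither was called without the length trend (-0.35 and -0.29). Cenpa, the centromeric histone variant, went the other way, at 165, 181 and 167 TPM against 129, 148, 106, 132 and 161 TPM. The lowest Colq library exceeded the highest Vector library, Vector tumor 3, only slightly (log2 fold change 0.30, SE 0.11; limma, adjusted p = 0.04). The Cenpa call was lost without any 1 Colq tumor, without Vector tumor 1 or without Vector tumor 2 (limma, adjusted p = 0.071 to 0.124), and with the Colq libraries as 1 sample (0.247). It was called higher after size factors (0.85) and without the length trend (0.39).

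The 3 Kif motors among the members were lower on each of the 3 scales, whereas the motor Cenpe was not called without the length trend. Kif11, which slides the spindle poles apart, had 25.0, 23.7 and 25.7 TPM in Colq and 46.5, 51.9, 43.5, 57.7 and 62.3 TPM in Vector libraries. Kif20a, a motor of the central spindle, stood at 24.2, 27.7 and 26.3 TPM against 53.4, 53.1, 45.7, 55.9 and 58.3 TPM, and Kif23, of the same structure, at 38.9, 38.7 and 33.3 TPM against 70.5, 56.9, 67.5, 83.1 and 89.6 TPM. Their log2 fold changes were -1.08, -1.02 and -1.01, with SE 0.10, 0.08 and 0.13. No Colq library reached any Vector library in these 3 genes, a separation shown by 57.4% of tested genes. Kif20a shares 1271 exonic bases with Cdc23 on the opposite strand, which was lower too (-0.89). Of the 2 members that work with the anaphase-promoting complex, its activator Cdc20 was at 54.4, 56.7 and 53.4 TPM against 94.5, 102, 86.9, 80.4 and 105 TPM (log2 fold change -0.78, SE 0.09). Ube2c, the ubiquitin-conjugating enzyme of the complex, was at 175, 196 and 178 TPM against 224, 258, 221, 202 and 239 TPM (log2 fold change -0.33, SE 0.07). Ube2c shares 592 exonic bases (22.8% of its own) with Tnnc2 on the opposite strand, a troponin gene of fast skeletal muscle that stood at 127 to 143 TPM in Colq and 3.67 to 22.8 TPM in Vector libraries. The part of Tnnc2 reads in the Ube2c value was not tested, and Ube2c was 0.22 after size factors and -0.48 without the length trend, each called.

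The 6 genes of G1/S control had a median log2 fold change of -0.52, close to the -0.50 of all tested genes. Of the 6, 4 were called lower as deposited, as were 59.6% of all tested genes. Ccnd1 (cyclin D1) was measured at 66.3, 68.6 and 63.1 TPM in Colq and 115, 104, 120.4, 129 and 102 TPM in Vector libraries (log2 fold change -0.75, SE 0.08). Its kinase Cdk4 stood at 413, 424 and 444 TPM against 469, 529, 486, 574 and 706 TPM, and was not called without Colq tumor 1 or 2 (limma, adjusted p = 0.063 and 0.055). E2f1 was at 26.8, 27.5 and 24.7 TPM against 40.1, 43.5, 39.8, 49.6 and 37.4 TPM (log2 fold change -0.63, SE 0.09). Cdk2, the kinase of cyclin E and the member with the highest mean TPM, was at 404, 399 and 401 TPM against 519, 586, 530.0, 625 and 817 TPM, with Vector tumor 3 far above the rest (log2 fold change -0.67, SE 0.14). Cdk2 shares 34 exonic bases with Pmel on the opposite strand, a pigment gene at 3035 to 3260 TPM in Colq and 6026 to 6996 TPM in Vector libraries, and the part of Pmel reads in Cdk2 was not tested. Also on the opposite strand, Ccnd1 shares 1100 exonic bases (23.4% of its own) with LTO1, and Cdk4 641 (19.7%) with Tspan31. The log2 fold changes of LTO1 (not called) and Tspan31 were -0.15 and -0.44, and the part of their reads in Ccnd1 and Cdk4 was not tested. The 2 cyclin E genes were not called. Ccne1 stood at 35.0, 36.9 and 35.5 TPM against 34.0, 34.5, 40.7, 39.3 and 29.0 TPM (log2 fold change 0.07, SE 0.11; limma, adjusted p = 0.609), and Ccne2 at 14.8, 14.2 and 16.01 TPM against 11.2, 16.3, 13.8, 13.6 and 13.4 TPM (log2 fold change 0.14, SE 0.08; limma, adjusted p = 0.148). In Ccne2 only 1 Vector library, the second portion of tumor 1, reached the Colq range; with portions averaged, all 3 Colq tumors lay above all 3 Vector tumors (exact two-sided permutation p = 0.1). After size factors and without the length trend, 0 of the 6 were called lower and these 2 were called higher (Ccne1 0.61 and 0.34, Ccne2 0.66 and 0.64). In those fits, lower calls among the 6 at an unadjusted p below 0.05 (limma) numbered 1 and 0. Of all tested genes, 26.8% and 27.0% were called lower and 27.3% and 18.8% higher. Ccne2 shares 609 exonic bases (17.4% of its own) with Ints8 on the opposite strand, which was lower in Colq tumors (log2 fold change -0.81).

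Fold change moved with transcript length, over all genes and within the mitosis class. Spearman's rho between log2 fold change and exonic length was -0.58 across the 13212 tested genes with a length and -0.54 across the 43 members. Within the classes it was -0.80 across the 22 mitosis members and -0.10 across the 15 replication members. These are descriptions across genes, which share libraries and are not independent. Members under 2000 bases, 9 in number, had a median log2 fold change of -0.30, beside -0.07 for all tested genes of that length. Between 2000 and 4000 bases the 25 members had a median of -0.87 beside -0.55, with -1.10 for its 12 replication members and -0.87 for its 7 mitosis members. From 4000 to 8000 bases the 7 members had -1.08 beside -0.83, and the 2 members above 8000 bases, Mki67 and Cenpf, -1.44 beside -1.05. In each range the members' median was therefore lower than that of all genes of like length. With the trend removed, rho over the members was -0.01. The source of the trend was not tested.

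**Figure D3:**
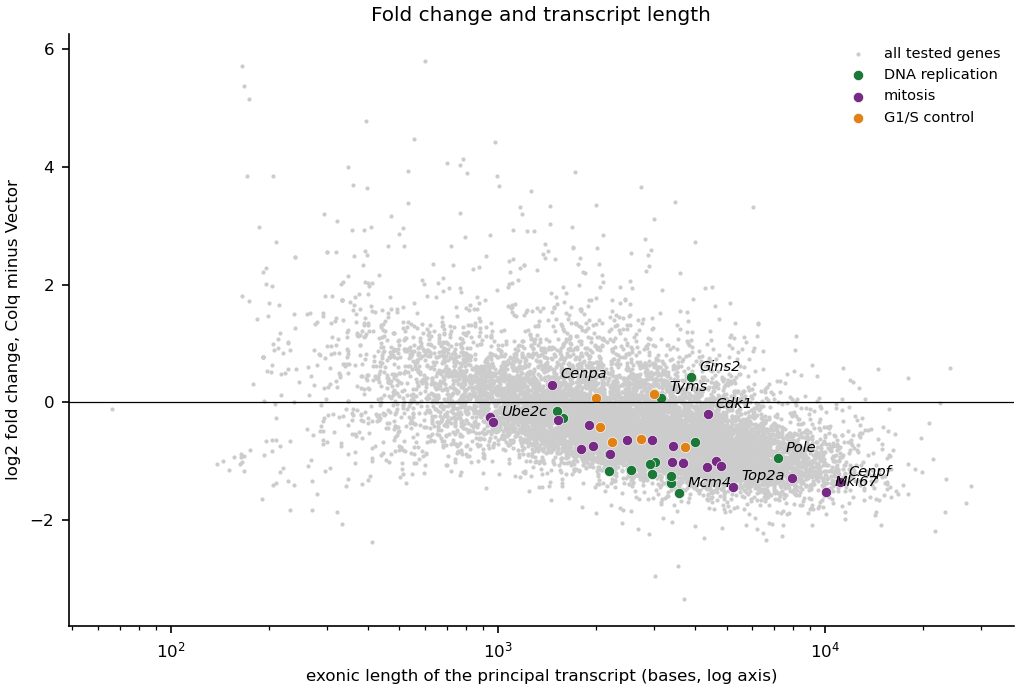
Log2 fold change (Colq minus Vector, as deposited) against the exonic length of the principal transcript (log axis), with all tested genes in grey and members in color. Longer genes lie lower, and Mki67 and Cenpf, the longest members, lie near the bottom with Mcm4, which is shorter.

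The level of replication genes relative to mitosis genes was compared tumor by tumor, as the mean log2(TPM + 1) of one class minus that of the other. Over the 15 and 22 members the difference was 0.06, 0.09 and 0.09 in Colq tumors 1 to 3 and 0.18, 0.26 and -0.14 in Vector tumors 1 to 3. The groups overlapped, with Vector tumor 3 below all Colq tumors. Taking the 6 Mcm genes in place of all replication genes gave 0.07, 0.10 and 0.03 in Colq and 0.54, 0.64 and 0.35 in Vector tumors. Here the groups lay apart, so that the Mcm transcripts were lower in Colq tumors beyond the lower level of the mitosis transcripts. This did not hold for the 9 other replication members. Their median log2 fold change was -0.68, beside -0.83 for the mitosis members. Since fold change also moved with length, these are descriptions on the deposited scale. The medians of the 2 classes differed by -0.18 (replication minus mitosis), and by -0.08 without Vector tumor 2. Together the 43 members took 0.384% to 0.389% of all TPM in Colq libraries and 0.538% to 0.639% in Vector libraries.

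**Figure D4:**
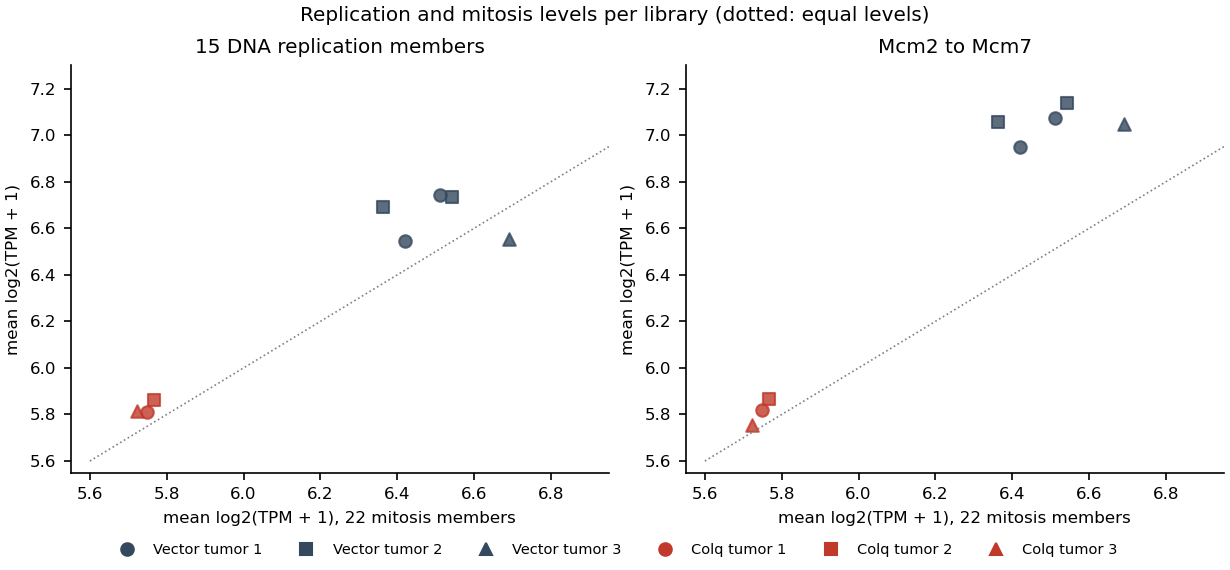
Mean log2(TPM + 1) of the 15 replication members (left) and of Mcm2 to Mcm7 (right) against that of the 22 mitosis members, 1 point per library. Colq libraries (red) lie together near the dotted line of equal levels, and Vector libraries (blue) lie higher, with Vector tumor 3 lowest on the left relative to the line.

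Vector tumors differed among themselves by class. Vector tumor 3 was the highest Vector tumor for 20 of the 22 mitosis members but for 5 of the 15 replication members, and the lowest for 8 of those 15. Vector tumor 2 was the highest for 7 of the 15. Vector tumor 3 was 1 library, whereas the values of tumors 1 and 2 were means of 2 portions. How often each tumor was highest or lowest over all genes was not computed. Portions of 1 tumor differed by a median of 0.16 (Vector tumor 1) and 0.15 (Vector tumor 2) on the log2 scale over the members. The second portion was the higher one for 38 of 43 members in tumor 1 and for 31 of 43 in tumor 2. The share over all genes was not computed. The library size factors were 1.129 and 1.135 in portions 1 and 2 of tumor 1. In tumor 2 they were 1.122 and 1.243, a shift of the whole library in the same direction. The largest portion differences were 0.50 for Ccne2 in tumor 1 and 0.45 for Mcm5 in tumor 2. They exceeded the difference between groups for Pcna, Tyms and Ccne2 in tumor 1 and for Cenpa in tumor 2, all members with small or uncalled changes. The coefficient of variation was smaller among Colq than among Vector tumors for 39 of 43 members, with medians of 4.18% and 9.40%.

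Further genes of the same pathways, taken from longer lists without the 43 members, were counted in the same fit. Of 56 other replication genes, all tested, 38 were called lower and 5 higher as deposited, with a median of -0.53, near the -0.50 of all tested genes. After size factors 20 were lower and 21 higher, and without the length trend 25 and 12. Beside this and the longer lists below, 59.6% of all tested genes were called lower and 11.3% higher as deposited. After size factors these shares were 26.8% and 27.3%, and without the length trend 27.0% and 18.8%. The maintenance methyltransferase Dnmt1 was at 25.5 ± 1.39 TPM in Colq and 89.7 ± 3.18 TPM in Vector tumors (mean ± SD, n = 3 each), the lowest fold change of the list (-1.77). Its recruiter Uhrf1 was at 42.5 ± 0.433 TPM against 122 ± 5.39 TPM (-1.50), and the chromatin assembly factor subunit Chaf1a at 14.3 ± 0.474 TPM against 36.7 ± 2.04 TPM (-1.30). All 3 were lower on each of the 3 scales. In the other direction stood Rpa3, the smallest subunit of the single-strand binding protein (0.95), the nucleotide pyrophosphatase Dctpp1 (0.67) and Gmnn (0.56). Gmnn encodes geminin, the inhibitor of Cdt1, and stood at 71.3 ± 6.05 TPM against 48.1 ± 2.50 TPM while Cdt1 was lower. These 3 were called higher on each scale.

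Of 83 other mitosis genes, all tested, 65 were called lower and 6 higher as deposited, with a median of -0.71. After size factors 37 were lower and 19 higher, and without the length trend 32 and 10. The nuclear lamin Lmnb1 (-1.28), the condensin subunit Ncapd2 (-1.06) and Anln, of the cleavage furrow (-1.05), were lower on each scale. The kinetochore genes Spc25 (0.42) and Cenpk (0.48) were higher on each scale, whereas Cks2, which binds cyclin-dependent kinases (0.53 as deposited), was not called without the length trend (0.21). Of 20 other G1/S genes, 18 were called lower and 0 higher as deposited (1 higher at an unadjusted p below 0.05), among them the phosphatase Cdc25a (-1.17), E2f3 (-1.14) and Ccnd3 (-0.77). After size factors 8 of the 20 were lower and 2 higher, and without the length trend 7 and 0 (0 higher at an unadjusted p below 0.05; median -0.06). Among 5 tested inhibitors of cyclin-dependent kinases, Cdkn1a, the p53 target p21, was lower at 73.5 ± 1.91 TPM against 124 ± 26.6 TPM (-0.72). Cdkn2c was also called lower (-0.22) and Cdkn2d higher (0.24). Cdkn1b and Cdkn1c were not called, and Cdkn2a and Cdkn2b were under the filter on low values. After size factors 0 of the 5 were called lower and 3 higher (0 lower at an unadjusted p below 0.05), with Cdkn1a at -0.17.

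Markers of the cell types in the tumors moved between the same groups. Beside the counts below, 59.6% of all tested genes were called lower and 11.3% higher as deposited. The same shares were 26.8% and 27.3% after size factors, and 27.0% and 18.8% without the length trend. Of 10 melanoma genes, 8 were called lower and 0 higher (0 higher at an unadjusted p below 0.05), with a median log2 fold change of -0.87, near the -0.78 of the members. Their summed TPM was 11359 to 11690 in Colq libraries and 18391 to 23237 in Vector libraries. Skeletal muscle genes were higher, 12 of 12, with sums of 1027 to 1042 TPM against 52.6 to 204 TPM. Macrophage genes summed to 1592 to 1641 TPM against 464 to 1160 TPM (3 of 10 called higher) and T cell genes to 45.8 to 50.7 TPM against 25.4 to 46.9 TPM (4 higher and 1 lower of 10), and 2 of 3 tested B cell genes were called higher. Endothelial genes were lower for 6 of 7 tested (78.8 to 84.0 TPM against 129.9 to 203 TPM), fibroblast genes were called in both directions (4 and 4 of 10), and keratinocyte genes ranged from 2.57 to 245 TPM among Vector libraries and from 42.1 to 47.2 TPM among Colq libraries. After size factors the melanoma genes were 5 lower and 2 higher (median -0.32), 9 of 10 macrophage genes and 6 of 10 T cell genes were called higher, and muscle genes remained 12 of 12. Without the length trend, 6 melanoma genes were lower and 1 higher, and 5 macrophage genes were higher. Without Vector tumor 2, 8 macrophage and 7 T cell genes were called higher as deposited, as were 1536 of all 13726 tested genes. All 10 melanoma markers were above 0 in every library. Pvalb and Mb of muscle and 9 of the 10 keratinocyte markers were at 0 in at least 1 library. The part that cell makeup has in the members' differences was not tested.

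The authors' deposited table, a DESeq2 comparison read as Colq minus Vector because Colq is positive in it, gave a median log2 fold change of -0.26 over the 43 members and 0.02 over the 18613 genes with an adjusted p. By the authors' deposited table, lower members numbered 22 (20.9% of all genes) and higher ones 10 (20.4%) at an adjusted p below 0.05. By class it had 10 of 15 replication members lower and 4 higher, 11 of 22 mitosis members lower and 4 higher, and 1 of 6 G1/S members lower and 2 higher. The Mcm genes stood at -0.47 (Mcm3) to -1.04 (Mcm4), and Mki67 at -1.02, in the authors' deposited table. It also listed Gins2 at 0.96, Cenpa at 0.84, Ccne2 at 0.70, Tyms at 0.63 and Ccne1 at 0.61. The labels list that table with each of these libraries, so it is not treated as a separate measurement. The sources used here do not say whether portions of a tumor entered it as replicates, in which case its p-values would be too small. The 6 members called lower as deposited but higher after size factors, Pcna, Prim1, Cdk1, Ccnb2, Birc5 and Ube2c, had positive values in it, of which Ube2c's did not pass (0.22, adjusted p = 0.066 in the authors' deposited table).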

How the data were processed

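RNA-seq of polyadenylated RNA was made without strand information from 8 libraries of 6 tumors, per the labels' protocols. The authors' deposited table holds expression as log2(TPM + 1): undoing this scale gave TPM with 2 decimals for 99.9% of values (tolerance 0.0001 TPM). RSEM, DESeq2 and build mm39 are named in the submitters' processing notes; the aligner, tool versions and annotation release were not given in the sources used here. The authors' deposited comparison holds for each gene a mean signal after normalization, a log2 fold change with its Wald score, and a p-value, per the file headers; 26581 of its 27664 IDs were matched to symbols.

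The members and all gene lists were chosen with earlier results of these data known. Portions of a tumor were averaged on the log2 scale, and the 13726 genes averaging 1 TPM or more across the 6 tumors were tested in R 4.3.3 by limma 3.58.1 (eBayes with trend after lmFit; Benjamini-Hochberg over all genes). The labels do not state that tumors came from separate mice, so p-values measure the spread between these tumors. TPM keeps no depth, so no counting interval was given. Size factors were median-of-ratios on TPM. The length trend was removed per tumor by loess (span 0.5) on exonic length from the GENCODE vM21 annotation (GRCm38), which covered 96.3% of tested genes. Other settings were pseudocount 0.1, no filter, a filter at 5 TPM, quantile normalization, TPM rescaled without mitochondrial, ribosomal protein, immunoglobulin and haemoglobin genes, other treatments of portions, a replicate block, and leaving out each tumor. Tested on simulated data (13726 genes, 200 of them changed), the fit called 79% of the changes of log2 size 1, 96% of those of size 2, and 7 unchanged genes. The simulated tumors were independent, with equal spread in both groups and no shift across all genes. These rates may therefore not carry over to the data. All members could be named; of each longer list, the 3 genes of smallest p called in each direction were named. The T and B cell receptor table was not used here.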

Additional observations from a re-analysis of the deposited data

How the results depend on the processing

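The counts of calls moved most with the scaling of libraries. Members called lower numbered 38 as deposited (59.6% of all tested genes), 20 after size factors (26.8%) and 23 without the length trend (27.0%). Mitosis members called lower fell from 21 to 11 after size factors. Members called higher numbered 1 as deposited (11.3% of all tested genes), 11 after size factors (27.3%) and 5 after quantile normalization (23.2%). They numbered 4 after rescaling without mitochondrial, ribosomal protein, immunoglobulin and haemoglobin genes (14.8%), and 6 without the length trend (18.8%). They numbered 0 with no filter, with second portions only, with the replicate block and with the Colq libraries as 1 sample, and 0 to 1 when single tumors were left out. At an unadjusted p below 0.05, limma gave 1, 2, 1 and 0 higher in the same 4 settings. The median of the members, -0.78 as deposited, was -0.24 after size factors, -0.42 after quantile normalization, -0.59 after rescaling and -0.35 without the length trend. Size factors raised all members by nearly the same amount (0.51 to 0.55), so signs turned for those with small negative values as deposited: Prim1 (0.28), Pcna (0.41), Cdk1 (0.36), Ccnb2 (0.25), Aurka (0.16), Birc5 (0.30), Ube2c (0.22) and Cdk4 (0.14). They turned after quantile normalization for Prim1 (0.11), Ccnb2 (0.083), Aurka (0.0058) and Birc5 (0.046), after rescaling for Pcna (0.052), and without the length trend for Cdk1 (0.48). Leaving out single tumors gave 34 to 38 members lower, 12 to 13 of replication and 19 to 21 of mitosis, and medians of -0.81 to -0.77. In those fits 7484 to 8216 of all 13726 tested genes were called lower and 1310 to 1549 higher, with medians of -0.52 to -0.48. Same-numbered tumors showed little shared deviation from their group means, with correlations of 0.03, 0.007 and 0.04. Such correlations cannot show whether tumors were paired by design. The replicate block gave 37 lower and 0 higher (7928 and 1526 of all 13726 tested genes), losing Pcna and Cenpa. Counting the Colq libraries as 1 sample was added after seeing the data and assumes that this sample varies like the Vector tumors. Limits are that Colq libraries are more alike than portions of a Vector tumor, that the fold change moves with length, and that TPM carries no depth.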
